A study of Mus musculus with 6 samples.

Results

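The genes described here encode collagens, laminins and other proteins of the extracellular matrix, measured by bulk RNA-seq in Hepa1-6 cells, a mouse liver cancer line. They were chosen by name from the protein-coding genes: every collagen chain, every laminin chain, Fbn1 and Fbn2, Thbs1 to Thbs4, the lysyl oxidases, and Fn1, Sparc, Tnc, Postn, Eln, Nid1, Nid2 and Hspg2. The rule found 74 of the 55573 genes listed, 44 of them collagens and 30 others. No measured value entered the rule, but the genes were chosen with earlier results of these data known.

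Collagens are built from chains that wind around each other into rods, and laminins from an alpha, a beta and a gamma chain. Laminins, type IV collagen, nidogen and the proteoglycan perlecan form the basement membrane, the thin sheet under epithelia. Fibrillar collagens, fibronectin and fibrillins form fibres between cells. Lysyl oxidases cross-link collagen and elastin, and thrombospondins, SPARC and tenascin-C are matricellular proteins, which act on cells from the matrix. In liver, most fibrillar collagen is made by stellate cells and fibroblasts, and its build-up is fibrosis.

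The study compared 3 libraries of Hepa1-6 cells with a CRISPR/Cas9 knockout of Matr3 (KO) with 3 libraries of wild-type Hepa1-6 cells (WT), all grown in the same serum-containing medium. Matr3 encodes matrin 3, a nuclear protein that binds RNA and DNA, and despite its name it is not a component of the extracellular matrix. No label tells whether a group's libraries stem from different cultures, nor whether the KO cells are 1 clone or several. The p-values therefore rest on library-to-library spread alone, and this spread may be technical. Matr3 itself had 76.0, 86.1 and 75.3 CPM (counts scaled to a common library size) in KO libraries 1 to 3, against 129, 125 and 134 CPM in WT libraries 1 to 3. Its log2 fold change was −0.71 (SE 0.0899, edgeR adjusted p = 0.00270), so the lower group was the one labelled KO, with RNA still present.

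Library totals were 23126778 to 30794032 counts in KO and 20736570 to 27578804 counts in WT. KO library 2 stood apart from the other KO libraries in its relation to GC content: across all tested genes, the log2 level in each library correlated with transcript GC content at −0.274 in KO library 2 and at 0.274 and 0.271 in KO libraries 1 and 3, after centring each gene. In WT the same value lay between −0.169 and −0.033. WT library 1 had counts for 23440 genes, against 20450 to 21217 genes in the other 5 libraries. Counts of called matrix genes are given with and without either library.

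The labelled cell type was checked with marker genes. Of 15 hepatocyte genes, 4 were abundant enough to be tested and 5, Ttr, Serpina1a, Fga, Fgb and Fgg, had 0 counts in every library; albumin (Alb) had 1 count in all. The summed level of the list was 1021 to 1077 CPM in KO and 579 to 684 CPM in WT, nearly all of it from the keratins Krt8 and Krt18, both of which rose (log2 fold changes 0.88 and 0.39, adjusted p = 0.00200 and 0.0338). The other tested genes of the list, Afp and Apoa2, were low and did not pass: Afp had 2.67, 2.14 and 3.55 CPM in KO libraries 1 to 3, against 4.81, 4.57 and 5.06 CPM in WT libraries 1 to 3, with no overlap (log2 fold change −0.79, adjusted p = 0.0505), and Apoa2 had 2.29 ± 0.699 FPKM in KO and 1.86 ± 0.609 FPKM in WT (0.30, adjusted p = 0.631). Albumin, transthyretin (Ttr) and fibrinogen, products of differentiated hepatocytes, were thus at or near 0 in both groups, and the cells are called by their label. Of 15 stellate cell and fibroblast genes, 9 were tested. Lrat, Thy1 and Hand2 had 0 counts in every library, Des and Pdpn rose, and Pdgfrb and Dpt fell, Dpt having met the count threshold in 3 WT libraries but only 1 KO library. That list summed to 2546 to 3125 CPM in KO and 1944 to 2532 CPM in WT, most of it from vimentin (Vim), and its part in the collagen results was not tested. Of 12 endothelial genes, 4 were tested, 4 had 0 counts throughout and the sum was 3.06 to 3.49 CPM in KO and 4.87 to 6.11 CPM in WT. Cdh5, which met the count threshold in 3 WT and 2 KO libraries, fell by 2.27 on the log2 scale (edgeR adjusted p = 0.00413). Of 9 leukocyte genes, 6 had 0 counts throughout and the sum was 12.4 to 16.0 CPM in KO and 10.7 to 11.9 CPM in WT, nearly all of it Cd68. In bulk RNA, fewer cells of a type and less RNA per cell cannot be told apart.

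The matrix genes together took 0.663%, 0.583% and 0.664% of the counts in KO libraries 1 to 3, against 0.600%, 0.613% and 0.593% in WT libraries 1 to 3. The groups overlapped, with KO library 2 the lowest of all 6 libraries. Of the 74 genes, 28 had a mean of at least 1 FPKM (fragments per kilobase of gene length, scaled to library size, the deposited measure that allows levels of different genes to be compared) in a group. The most abundant were Sparc, which encodes a collagen-binding matricellular protein, at 184 ± 12.4 FPKM in KO and 163 ± 16.3 FPKM in WT (SD, n = 3 each), and the basement membrane linker Nid1 at 84.7 ± 4.21 FPKM in KO and 80.6 ± 8.15 FPKM in WT. Next came Loxl2, a lysyl oxidase, at 67.5 ± 2.19 FPKM in KO and 56.6 ± 6.998 FPKM in WT, and the fibrillar collagen Col3a1 at 58.9 ± 5.66 FPKM in KO and 64.3 ± 6.30 FPKM in WT. The order of Loxl2 and Col3a1 differed between the groups, and their levels in WT did not differ beyond the spread of the libraries. The laminin chains Lama5 (50.5 ± 2.86 FPKM in KO and 57.2 ± 4.62 FPKM in WT) and Lamc1 (45.4 ± 1.18 FPKM in KO and 44.2 ± 5.31 FPKM in WT), the basement membrane collagen Col4a1 (49.0 ± 10.6 FPKM in KO and 44.0 ± 2.83 FPKM in WT) and perlecan, Hspg2 (36.7 ± 2.85 FPKM in KO and 38.3 ± 1.601 FPKM in WT), completed the 8 most abundant genes. Within KO, the SD of Col4a1 spanned the means of Lama5 and Lamc1.

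Of the 8 genes just described, none passed the test of KO against WT; their log2 fold changes ran between −0.19 for Lama5 and 0.24 for Loxl2, with adjusted p of 0.244 and 0.152. For Sparc, Nid1 and Lamc1 the log2 fold changes were 0.17, 0.06 and 0.03 (adjusted p = 0.313, 0.710 and 0.870). Loxl2 was higher in every KO library than in any WT library, at 357, 376 and 361 CPM in KO libraries 1 to 3, against 268, 332 and 323 CPM in WT libraries 1 to 3. At the other end, 35 of the 74 genes were too low to be tested, with at most 27 counts in any library, and 8 had 0 counts in all 6 libraries. Among those 8, which follow no naming rule, were the laminin chains Lama1 and Lama4, the founding lysyl oxidase Lox, periostin (Postn) and Thbs4.

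**Figure D1:**
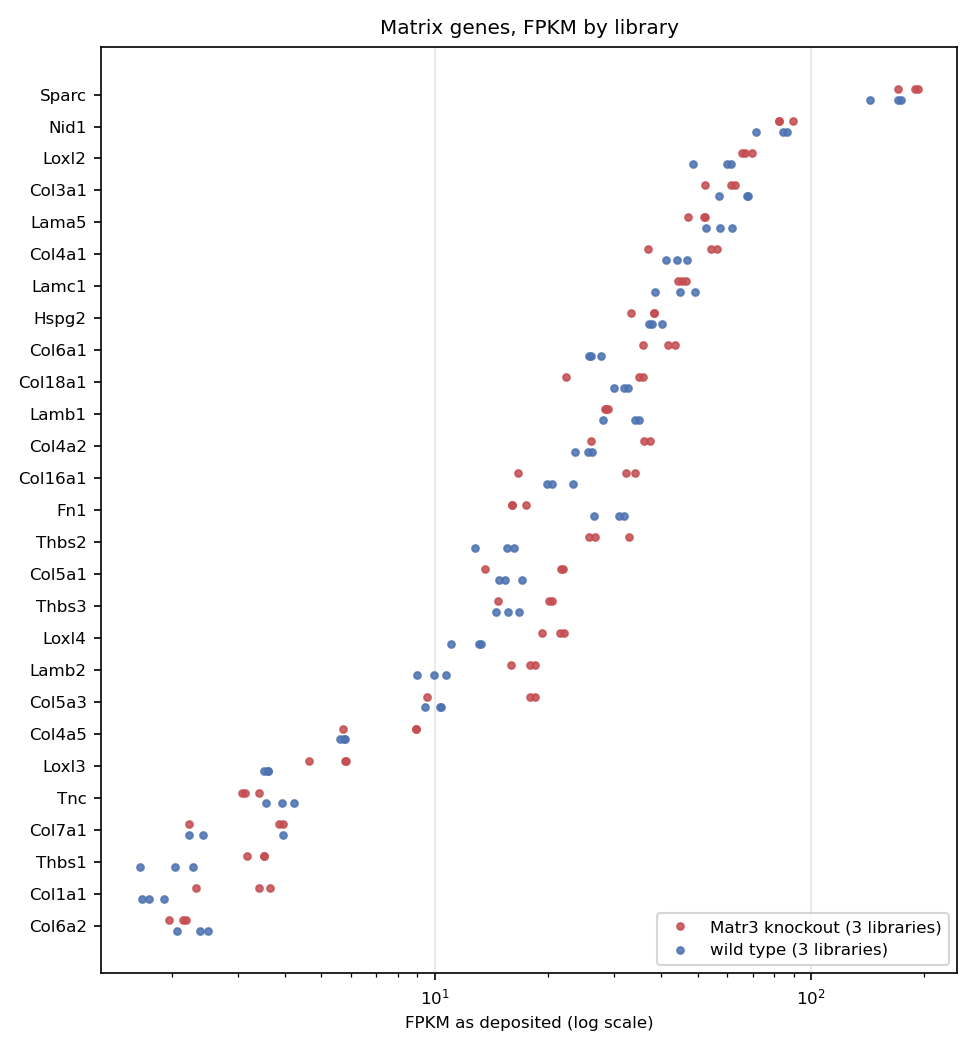
Deposited FPKM (log axis) of 27 of the 28 matrix genes with a group mean of at least 1 FPKM; each point is a library, KO in red above WT in blue (n = 3 each). Sparc stood highest in both groups, with means of 184 FPKM in KO and 163 FPKM in WT.

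Of the 39 genes that were tested, 8 rose and 5 fell in KO at an adjusted p below 0.05 in edgeR's quasi-likelihood test, and 26 did not pass, 13 of them with a higher and 13 with a lower mean fold change. That is 33.3% of those tested. Across all 14842 genes tested, 15.2% were called, 7.69% as higher and 7.48% as lower. The matrix genes are all protein-coding; in a fit of protein-coding genes alone, 21.8% of 11972 genes were called and 14 of the 39 matrix genes, the added one being Col14a1, named after its values were seen (adjusted p = 0.0362 there). The median log2 fold change of the tested matrix genes was 0.06 and that of all tested genes −0.02. KO and WT values were fully apart in all 13 called genes and in 19 of the 39 tested, against 36.6% of all genes tested. The 13 were called by a test on these same values, so their separation adds no further support. The genes that rose included the collagen chains Col1a1 and Col6a1, the laminin chain Lamb2, the lysyl oxidases Loxl3 and Loxl4, and the thrombospondins Thbs1 and Thbs2. Those that fell were Col6a3, Col6a4, Col24a1, fibronectin (Fn1) and fibrillin 2 (Fbn2). Col14a1, Col1a2, Col22a1 (also at the filter level in 2 KO libraries), Col6a4 and Fbn2 reached the count filter through the WT libraries, and 2 of these 5 were called. All 5 are among the 19 with groups fully apart. Except for Col22a1, no KO library reached the filter level in them, so the filter itself set their groups apart. These counts describe the genes that passed the filter, not all 74.

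**Figure D2:**
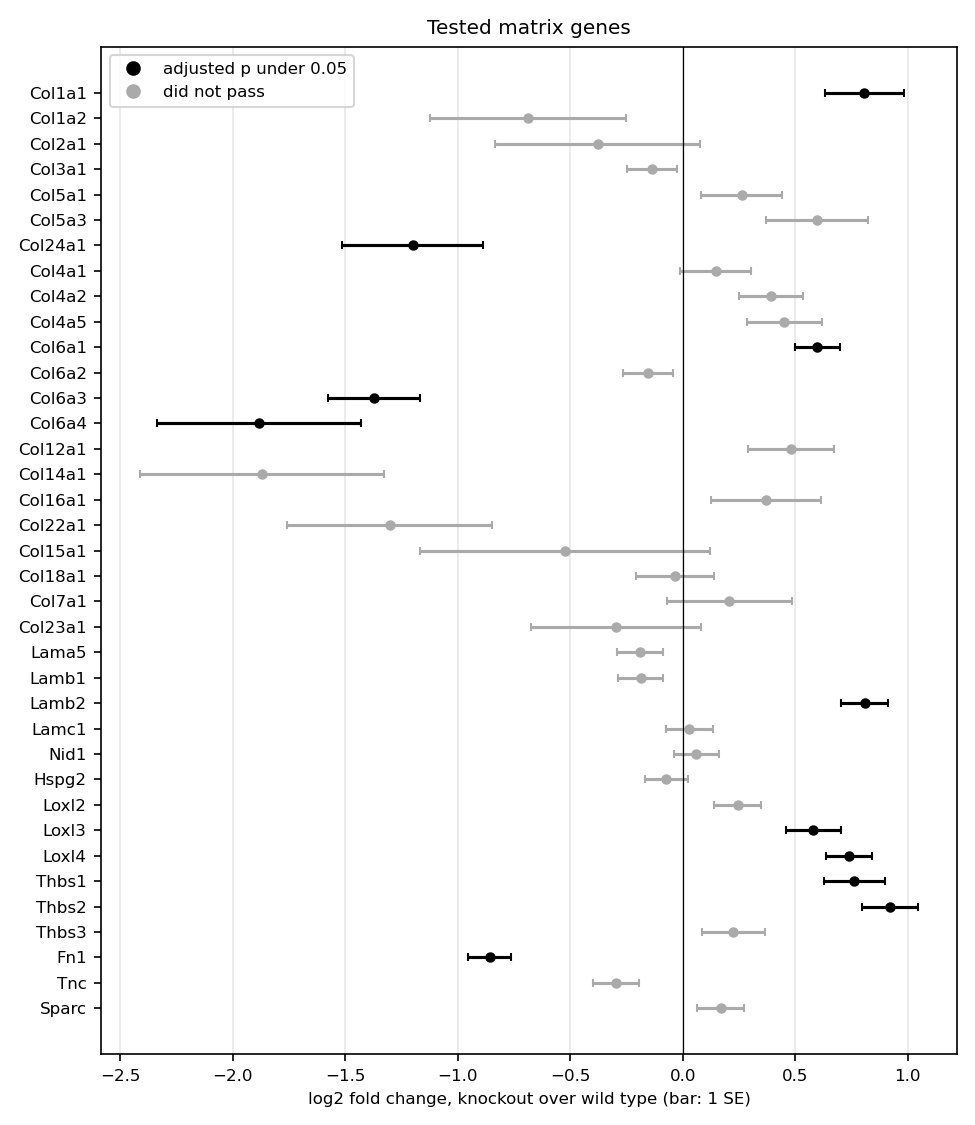
Log2 fold change, KO over WT, of 37 of the 39 tested matrix genes, Fbn2 not among them, ordered by family; bars are 1 SE, black points passed an adjusted p of 0.05 and grey points did not. Lysyl oxidases and thrombospondins had called genes on the higher side, whereas collagen VI had called genes on both sides.

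Of the 11 laminin chains, 5 were tested. Lamb2, which encodes the laminin beta 2 chain, a component of the basement membranes of the kidney glomerulus and the neuromuscular junction, had 113, 96.3 and 109 CPM in KO libraries 1 to 3, against 66.7, 54.6 and 60.5 CPM in WT libraries 1 to 3. The lowest KO library thus lay above the highest WT library. The means were 17.4 ± 1.34 FPKM in KO and 9.89 ± 0.887 FPKM in WT, and the log2 fold change was 0.81 (SE 0.106, edgeR adjusted p = 0.00303), or 1.75-fold. The more abundant beta chain, Lamb1, named after its values were seen, had 284, 285 and 281 CPM in KO libraries 1 to 3, against 284, 346 and 338 CPM in WT libraries 1 to 3, with a log2 fold change of −0.19 that did not pass (adjusted p = 0.241). Lamb2 therefore stood at 0.648, 0.551 and 0.632 of the FPKM of Lamb1 in KO libraries 1 to 3, against 0.383, 0.257 and 0.292 in WT libraries 1 to 3. The 2 sets of ratios did not overlap, and an exact two-sided permutation test gave p = 0.1, the smallest that 3 libraries against 3 allow; adjusted over the 4 ratios computed between chains, all chosen after their values were seen, it was also 0.1.

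The beta chain promoters are shown because the products of both genes take the same place in a laminin, and Lamb2 rose while Lamb1 did not pass. The RefSeq table, on build GRCm38.p6, held 7 of the 13 called genes and 50 of the 74. Each sequence is the 120 bases before the annotated start, on the gene's strand, at chr9:108479742-108479861 (plus strand) for Lamb2 and chr12:31265173-31265292 (plus strand) for Lamb1. Capitals mark matches, on either strand, to the GC box GGGCGG (also read as CCGCCC), the TATA box TATAAA, the CCAAT box CCAAT or the AP-1 motif TGANTCA. Such windows held a GC box in 26.5% of 32851 promoters, a TATA box in 6.34%, a CCAAT box in 21.3% and an AP-1 motif in 3.41%.
Lamb2: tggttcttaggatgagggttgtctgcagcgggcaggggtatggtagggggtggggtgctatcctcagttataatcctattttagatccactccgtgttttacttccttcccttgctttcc
Lamb1: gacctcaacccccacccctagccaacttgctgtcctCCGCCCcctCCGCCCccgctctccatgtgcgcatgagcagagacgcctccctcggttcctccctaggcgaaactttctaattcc
The Lamb1 window held 2 GC boxes and the Lamb2 window matched none of the 4 motifs.

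Type VI collagen, a beaded microfibril assembled from the alpha 1 and alpha 2 chains and a longer partner, changed in both directions. Of its 6 genes, 4 were tested: Col6a1 rose, Col6a3 and Col6a4 fell, and Col6a2 did not pass. Col6a1 (ENSMUSG00000001119, chromosome 10 from 76544626 to 76562002 in the deposited table) had 184, 156 and 190 CPM in KO libraries 1 to 3, against 116, 121 and 113 CPM in WT libraries 1 to 3. All KO libraries were above all WT libraries; the means were 40.4 ± 4.02 FPKM in KO and 26.5 ± 1.06 FPKM in WT, and the log2 fold change was 0.60 (SE 0.1003, edgeR adjusted p = 0.00745). Col6a3 (ENSMUSG00000048126, chromosome 1 from 90693645 to 90771693), the usual longer partner, was low in both groups, at 2.15, 1.85 and 2.18 CPM in KO libraries 1 to 3, against 4.71, 6.29 and 4.98 CPM in WT libraries 1 to 3. Every KO library lay below every WT library, and Col6a3 fell by 1.37 on the log2 scale (SE 0.204, adjusted p = 0.00464), or 2.59-fold.

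The ratio of Col6a3 to Col6a1 was 0.00428, 0.00434 and 0.00420 in KO libraries 1 to 3, against 0.0148, 0.0190 and 0.0162 in WT libraries 1 to 3, a log2 difference of −1.96 with groups that did not overlap (exact two-sided permutation p = 0.1, the smallest possible). Col6a2, named after its values were seen, was also far below Col6a1, at 2.10 ± 0.116 FPKM in KO and 2.32 ± 0.220 FPKM in WT (log2 fold change −0.15, adjusted p = 0.388). Col6a4, an alternative longer partner, had 6, 5 and 4 counts in KO libraries 1 to 3, against 16, 21 and 14 counts in WT libraries 1 to 3. It fell by 1.88 on the log2 scale (SE 0.452, adjusted p = 0.0280), but was at or above 0.05 without KO library 1, 2 or 3 or WT library 2 or 3, with adjusted p between 0.0527 and 0.144, and 0.0491 without WT library 1. Col6a4 reached the count filter through the WT libraries alone, where it is high, so its p-value is not independent of that filter. The promoters of Col6a1 (chr10:76726045-76726164, minus strand) and Col6a3 (chr1:90843972-90844091, minus strand) are shown because they belong to chains of 1 protein that changed in opposite directions; the capitals in Col6a1 mark 1 AP-1 motif, and Col6a3 matched none of the 4 motifs.
Col6a1: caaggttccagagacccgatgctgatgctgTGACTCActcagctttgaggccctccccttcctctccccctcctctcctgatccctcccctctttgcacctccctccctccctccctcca
Col6a3: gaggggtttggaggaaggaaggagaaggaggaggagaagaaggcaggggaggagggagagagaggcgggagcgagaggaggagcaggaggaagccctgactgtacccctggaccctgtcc

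**Figure D3:**
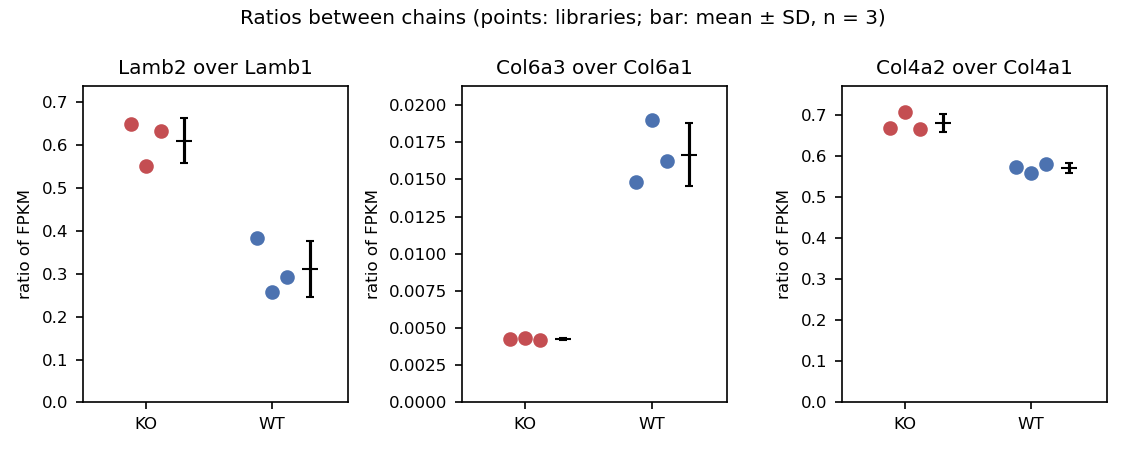
Ratio of the deposited FPKM of chain pairs in each library, for KO (left) and WT (right), with mean and SD (n = 3 each). The Lamb2 to Lamb1 ratio was 0.610 ± 0.0517 in KO and 0.311 ± 0.0651 in WT, and that of Col6a3 to Col6a1 was lower in every KO library than in any WT library.

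Of the 11 fibrillar collagen genes, 7 were tested; Col1a1 rose, Col24a1 fell and 5 did not pass. Col1a1, the main chain of type I collagen, had 24.0, 15.2 and 22.3 CPM in KO libraries 1 to 3, against 11.2, 11.4 and 12.5 CPM in WT libraries 1 to 3. KO library 2 was the lowest of the KO libraries and still above every WT library. Its level per length was modest, at 3.13 ± 0.701 FPKM in KO and 1.77 ± 0.121 FPKM in WT, and its log2 fold change was 0.81 (SE 0.176, edgeR adjusted p = 0.0198). Without KO library 1 or 3 or any of the WT libraries the adjusted p lay between 0.0562 and 0.0759, and without KO library 2 it was 0.000736. Its partner Col1a2, named after its values were seen, had only 22 counts over the KO libraries and 32 counts over the WT libraries and did not pass (log2 fold change −0.69, adjusted p = 0.325). Col3a1, the type III chain and the most abundant collagen here, had 606, 511 and 616 CPM in KO libraries 1 to 3, against 571, 670 and 665 CPM in WT libraries 1 to 3, and the groups overlapped (log2 fold change −0.14, adjusted p = 0.438). Col24a1, a minor fibrillar collagen, had 1.33, 0.766 and 1.06 CPM in KO libraries 1 to 3, against 2.89, 1.91 and 2.44 CPM in WT libraries 1 to 3, and fell by 1.20 on the log2 scale (SE 0.313, adjusted p = 0.0371); leaving out any of the 6 libraries took its adjusted p to between 0.0528 and 0.126.

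Of the 6 type IV collagen genes, 3 were tested and did not pass, with log2 fold changes between 0.15 and 0.45. Col4a1 had 406, 273 and 419 CPM in KO libraries 1 to 3, against 314, 350 and 329 CPM in WT libraries 1 to 3. KO library 2 lay below the WT libraries and KO libraries 1 and 3 above them. Col4a2, named after its values were seen, had 240, 171 and 247 CPM in KO libraries 1 to 3, against 160, 173 and 169 CPM in WT libraries 1 to 3, and a log2 fold change of 0.39 (adjusted p = 0.1004). The ratio of Col4a2 to Col4a1 in FPKM, chains that lie head to head and wind together, was 0.680 ± 0.0226 in KO and 0.571 ± 0.0115 in WT (SD, n = 3 each), with no overlap between the groups (exact two-sided permutation p = 0.1). Without KO library 2 the genes called by edgeR included Col4a1 (log2 fold change 0.32, adjusted p = 0.0229), Col4a2 (0.55, adjusted p = 0.00219) and Col4a5 (0.64, adjusted p = 0.000852). Transcript GC content was 56.9%, 60.5% and 50.7% for these 3 genes, and its part in the calls was not tested. The remaining collagens, the 9 fibril-associated, 2 of types XV and XVIII and 10 others, gave 8 tested genes, with log2 fold changes between −1.87 and 0.48, and these did not pass; their adjusted p was 0.0526 or above.

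Of the 5 lysyl oxidase genes, 3 were tested, 2 rose and Loxl2 did not pass. Loxl4, a lysyl oxidase-like enzyme, had 91.2, 80.6 and 93.2 CPM in KO libraries 1 to 3, against 47.6, 56.1 and 55.2 CPM in WT libraries 1 to 3. The groups were well apart, at 21.0 ± 1.52 FPKM in KO and 12.5 ± 1.23 FPKM in WT, and the log2 fold change was 0.74 (SE 0.102, edgeR adjusted p = 0.00349). Loxl3, a further enzyme of the family, had 26.8, 21.2 and 26.6 CPM in KO libraries 1 to 3, against 17.0, 16.7 and 16.2 CPM in WT libraries 1 to 3, and rose 1.49-fold (log2 fold change 0.58, SE 0.122, adjusted p = 0.0172). Without KO library 1 or 3 or WT library 2 or 3 its adjusted p was 0.0674 to 0.0776. Loxl3 overlaps Htra2 on the opposite strand over 1297 bases, and the sources used here do not state whether counting used the strand, so reads of the overlap cannot be assigned. The 3 tested genes and the low Loxl1 summed to 475, 478 and 481 CPM in KO libraries 1 to 3, against 333, 405 and 395 CPM in WT libraries 1 to 3, largely Loxl2.

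Of the 4 thrombospondin genes, 3 were tested, 2 rose and Thbs3 did not pass. Thrombospondins are secreted calcium-binding glycoproteins, and thrombospondins 1 and 2 inhibit the growth of blood vessels. Thbs2 had 181, 228 and 187 CPM in KO libraries 1 to 3, against 91.7, 114 and 109 CPM in WT libraries 1 to 3. It was the largest rise of the called matrix genes, with a log2 fold change of 0.92 (SE 0.126, edgeR adjusted p = 0.00336), or 1.89-fold, at 28.4 ± 3.81 FPKM in KO and 14.9 ± 1.82 FPKM in WT. Here KO library 2 was the highest of the KO libraries, unlike in most collagens. Thbs1 had 19.3, 21.3 and 21.4 CPM in KO libraries 1 to 3, against 10.2, 12.4 and 13.9 CPM in WT libraries 1 to 3, and rose 1.70-fold (log2 fold change 0.76, SE 0.135, adjusted p = 0.00918).

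The promoters of Thbs2 (chr17:14694263-14694382, minus strand) and Loxl4 (chr19:42612807-42612926, minus strand) are given as those of the most abundant called gene of each of these families, with capitals at the same motifs. Loxl4 held 3 GC boxes and Thbs2 matched none of the 4 motifs.
Thbs2: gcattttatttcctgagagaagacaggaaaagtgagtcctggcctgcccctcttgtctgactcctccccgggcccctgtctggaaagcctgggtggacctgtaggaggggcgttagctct
Loxl4: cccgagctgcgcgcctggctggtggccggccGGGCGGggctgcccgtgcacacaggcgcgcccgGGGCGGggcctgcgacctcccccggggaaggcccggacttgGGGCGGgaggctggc

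Fibronectin, the glycoprotein that links cells to collagen through integrins, was the abundant gene that fell. Fn1 (ENSMUSG00000026193, chromosome 1 from 71624679 to 71692359 in the deposited table) had 188, 203 and 188 CPM in KO libraries 1 to 3, against 316, 372 and 362 CPM in WT libraries 1 to 3. The highest KO library was far below the lowest WT library. Levels were 16.5 ± 0.796 FPKM in KO and 29.8 ± 2.87 FPKM in WT, and Fn1 fell by 0.86 on the log2 scale (SE 0.0965, edgeR adjusted p = 0.00173), or 1.81-fold. Tenascin-C (Tnc), named after its values were seen, had 24.0, 24.2 and 26.5 CPM in KO libraries 1 to 3, against 28.2, 30.5 and 33.0 CPM in WT libraries 1 to 3, and did not pass (log2 fold change −0.30, adjusted p = 0.0863). Sparc had 722, 640 and 730 CPM in KO libraries 1 to 3, against 556, 645 and 659 CPM in WT libraries 1 to 3, and its groups overlapped.

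Fibrillin 2, a microfibril protein made mostly in development, was the member with the widest gap. Fbn2 (ENSMUSG00000024598, on chromosome 18) had 0 counts in each of the 3 KO libraries, against 117, 180 and 152 counts in WT libraries 1 to 3. The WT mean was 5.99 ± 0.664 CPM, or 0.451 ± 0.0534 FPKM, a low level per length. With the floor for a count of 0 set at 3 counts over the 3 KO libraries, Fbn2 was at least 167-fold lower in KO (edgeR adjusted p = 0.000254). Fbn2 reached the count filter through the WT libraries alone, where it is high, so its p-value is not independent of that filter. Fbn1 and elastin (Eln), the other genes of this family, were too low to be tested.

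**Figure D4:**
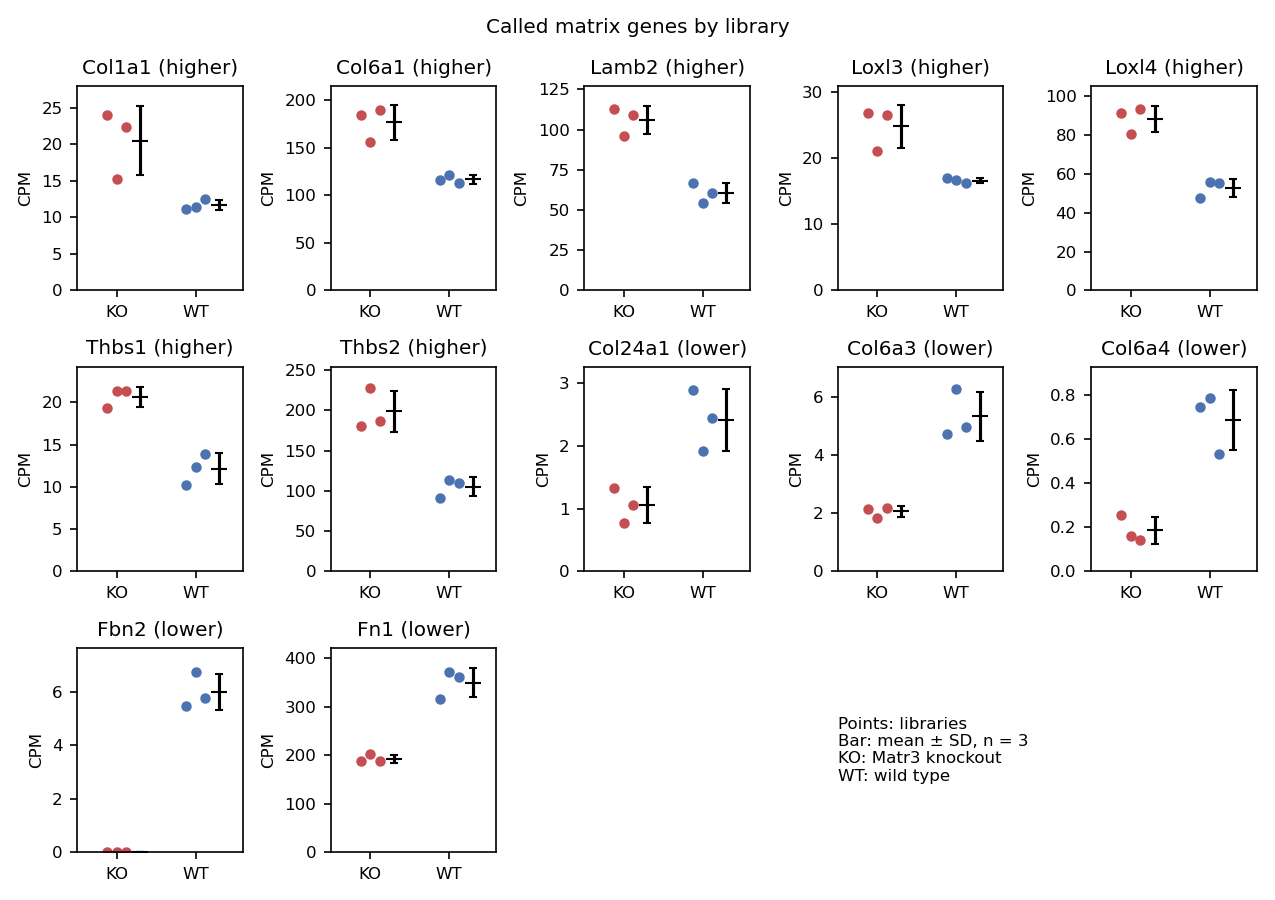
CPM in each library for 12 of the 13 called matrix genes, with KO left of WT; bars are mean and SD (n = 3 each), and every panel has its own axis from 0. In all 12 panels the KO and WT points do not overlap; Fbn2 lies at 0 in the 3 KO libraries.

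KO library 2 was lower than both other KO libraries in 16 of the 22 tested collagens and in 8 of the 17 other tested genes. The median log2 difference between KO library 2 and the mean of KO libraries 1 and 3 was −0.55 for the collagens and −0.06 for the others. Across the 39 tested genes this difference correlated with transcript GC content at r = −0.543, and at −0.43 across all tested genes; genes share the libraries and are not independent, so no p is given. The collagens had a median GC content of 56.1%, the other tested matrix genes 53.0% and all tested genes 49.9%. Summed over the collagens the level was 2367, 1663 and 2422 CPM in KO libraries 1 to 3, against 1904, 2001 and 1924 CPM in WT libraries 1 to 3: KO library 2 was the lowest and KO libraries 1 and 3 the highest of the 6. After a GC and length trend was removed, 17 of the matrix genes were called, 10 as higher and 7 as lower, with 20.8% of all tested genes called. These were the 13 of the main fit and 4 added genes. Col14a1, which reached the count filter through the WT libraries, was among the added ones (log2 fold change −1.90, edgeR adjusted p = 0.0401). The part of GC content in single results was not tested.

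Without KO library 2, 18 matrix genes were called, with 28.1% of all tested genes called. Besides the type IV collagens given above, the added genes, named after their values were seen, were Col5a1 (log2 fold change 0.46, adjusted p = 0.00658), Col5a3 (0.85, adjusted p = 0.000464), Col16a1 (0.64, adjusted p = 0.00259) and Thbs3 (0.37, adjusted p = 0.0150), and Col24a1 and Col6a4 were lost. The KO libraries left in that fit, 1 and 3, correlated with GC content at 0.274 and 0.271, against −0.169 to −0.033 in WT. Transcript GC content was 57.7% for Col5a1, 60.7% for Col5a3, 61.2% for Col16a1 and 55.5% for Thbs3. The median over all tested genes was 49.9%. No GC trend was removed in that fit, and the part of GC content in its calls was not tested. With all libraries, Col5a3 had 123, 64.8 and 126 CPM in KO libraries 1 to 3, against 71.7, 71.0 and 64.3 CPM in WT libraries 1 to 3, so that KO library 2 alone lay among the WT values. Thbs3 lies wholly within the span of Mtx1 on the opposite strand, so its counts are uncertain. Without WT library 1, 10 matrix genes were called, with 13.5% of all tested genes. Without KO library 1, KO library 3, WT library 2 or WT library 3, 8 matrix genes were called in each case, with 5.62%, 5.43%, 6.07% and 5.28% of all tested genes. The same 8, Col6a1, Lamb2, Loxl4, Thbs1 and Thbs2 as higher and Col6a3, Fbn2 and Fn1 as lower, were called under every one of the 20 alternatives run. Of these, Fbn2 reached the count filter of the main fit through the WT libraries alone.

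**Figure D5:**
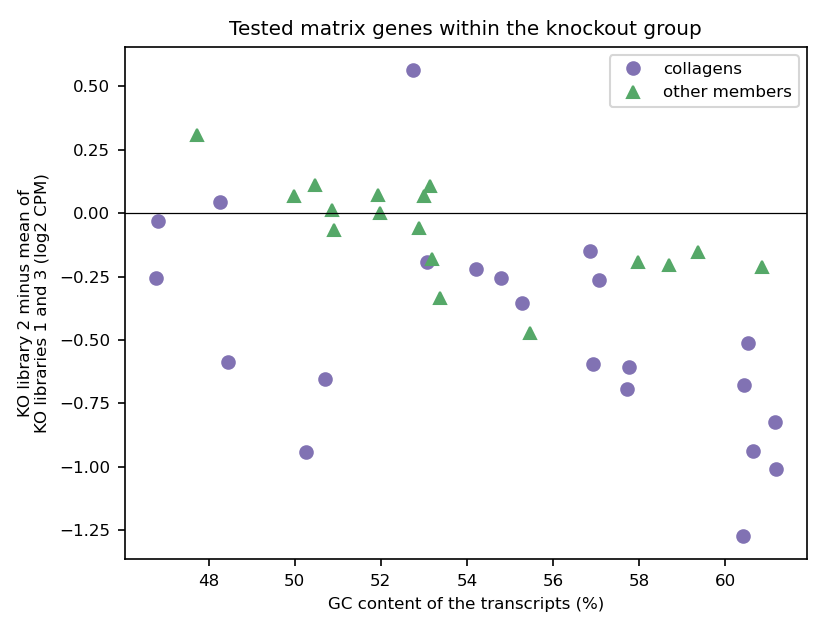
Difference between KO library 2 and the mean of KO libraries 1 and 3 (log2 CPM) against transcript GC content (%), for the tested collagens (circles, n = 22) and other matrix genes (triangles, n = 17). Most collagens lie below 0, with a median of −0.55, and the others lie around 0, with a median of −0.06.

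Genes for making and processing collagen, a list of 30 that does not overlap the matrix genes, gave 25 tested, of which 2 rose, 2 fell and 21 did not pass; 16.0% were called, against 15.2% of all genes tested, and the median log2 fold change was −0.02. P4hb, a subunit of the prolyl hydroxylase that stabilises collagen, had 1595 ± 18.2 CPM in KO and 1235 ± 115 CPM in WT (SD, n = 3 each) and rose by 0.37 on the log2 scale (edgeR adjusted p = 0.0396). P4ha3, a catalytic subunit of that enzyme, had 29.7 ± 0.411 CPM in KO and 21.4 ± 1.17 CPM in WT and rose by 0.47 (adjusted p = 0.0148). The lysyl hydroxylase Plod3 had 61.3 ± 4.10 CPM in KO and 77.7 ± 5.79 CPM in WT (log2 fold change −0.34, adjusted p = 0.0454), and the procollagen protease Adamts14 had 33.5 ± 3.51 CPM in KO and 50.2 ± 7.01 CPM in WT (−0.59, adjusted p = 0.0196). The list had 6 genes with an unadjusted p under 0.05. Without KO library 1, KO library 3 or WT library 2, edgeR called 0 of its genes, with 5, 4 and 5 at an unadjusted p under 0.05, and without WT library 3 it called 1; over all genes those fits called 5.62%, 5.43%, 6.07% and 5.28%.

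Among 24 matrix proteoglycans 4 were tested and 1 was called, which is 25%, against 15.2% of all genes tested. The called gene was agrin (Agrn), a heparan sulphate proteoglycan of basement membranes. It had 87.9, 63.7 and 87.1 CPM in KO libraries 1 to 3, against 193, 170 and 156 CPM in WT libraries 1 to 3, and fell by 1.12 on the log2 scale (SE 0.144, edgeR adjusted p = 0.00287). Perlecan, the basement membrane proteoglycan counted among the 74, had 568, 489 and 563 CPM in KO libraries 1 to 3, against 567, 592 and 547 CPM in WT libraries 1 to 3, and did not pass (log2 fold change −0.07, adjusted p = 0.635).

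Among 57 other matrix glycoproteins 32 were tested, 5 rose, 4 fell and 23 did not pass. In this main fit 28.1% were called, against 15.2% of all genes tested, and the median log2 fold change was 0.10. The separate fit of protein-coding genes alone called 21.8% of its genes, and the list's own count in that fit is not given here. Tgfbi, which encodes a collagen-binding protein induced by TGF-beta, had 52.4, 50.6 and 55.3 CPM in KO libraries 1 to 3, against 21.8, 23.4 and 24.7 CPM in WT libraries 1 to 3 (log2 fold change 1.18, edgeR adjusted p = 0.000358). Ltbp1 and Ltbp4, which bind latent TGF-beta in the matrix, changed in opposite directions. Ltbp1 rose (129 ± 11.04 CPM in KO and 82.4 ± 2.75 CPM in WT, log2 fold change 0.65, adjusted p = 0.00393), while Ltbp4 fell (75.3 ± 8.45 CPM in KO and 116 ± 4.44 CPM in WT, −0.63, adjusted p = 0.00690). Osteopontin (Spp1), an integrin ligand, had 308 ± 5.57 CPM in KO and 518 ± 40.8 CPM in WT and fell by 0.75 (adjusted p = 0.00251). Fibulin 5 (Fbln5), an elastic fibre protein, had 25, 25 and 30 counts in KO libraries 1 to 3, against 2, 2 and 1 counts in WT libraries 1 to 3 (log2 fold change 3.76, adjusted p = 0.00303). It reached the count filter through the KO libraries alone, where it is high, so that its groups had to differ, and it is among the 9 called.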

How the data were processed

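Raw counts per gene in 3 KO and 3 WT libraries were taken from the authors' deposited table, per the file headers, and groups from the sample labels. The deposited FPKM, used for levels between genes, divides counts by gene length and library size. The deposited signal (a mean of scaled counts per group), log2 fold changes and p-values come from a comparison run by the authors. Its tool, like aligner, counter and strand, was not given in the sources used here. Both GRCm38 and mm10 appear in the submitters' processing notes, but of 52081 identifiers shared with an annotation of GRCm38 only 1494 had the same start and end, so the build of the table's coordinates, printed unaltered, is not settled. Promoter sequences came from RefSeq, on GRCm38.p6.

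The test on counts was that of edgeR 4.0.16 under R 4.3.3 (quasi-likelihood, filterByExpr, TMM), fitted on all 14842 genes kept and adjusted over them by Benjamini-Hochberg, called at 0.05; CPM use TMM library sizes and SE is the log2 fold change divided by the root of F. The fit was also run on simulated data, but its outcome there is not given here. Reads carry no molecular identifiers, so floors cover counting error only. DESeq2 1.42.0, limma 3.58.1 and other filters, scalings and left-out libraries served as alternatives. The genes and the lists were chosen with earlier results of these data known. Genes named are every called matrix gene (1 is not reported here), the 8 most abundant uncalled ones, up to 5 called genes of smallest p in each further list, and Matr3; any other is said to be named after its values were seen, apart from markers.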

Additional observations from a re-analysis of the deposited data

How the results depend on the processing

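Of the matrix genes, 13 were called, and 10 to 17 were called under every alternative that kept all 6 libraries and the threshold of 0.05. Across those alternatives 10.6% to 21.8% of all genes tested were called, against 15.2% in the main fit. Leaving out 1 library at a time gave 8 to 18 matrix genes, with 807 to 4295 of all genes in place of 2252, or 5.28% to 28.1%. The same fits gave 0 to 7 collagen assembly genes in place of 4, 1 to 2 proteoglycans in place of 1 and 6 to 12 other glycoproteins in place of 9. The lowest counts came without KO library 1 or 3 or WT library 2 or 3, and the highest for all genes (4295) without KO library 2. Without KO library 2 and WT library 1 together, 7556 of 14825 genes were called in all, or 51%. They included 29 matrix genes (20 higher, 9 lower), 14 assembly genes, 3 proteoglycans and 21 other glycoproteins. In that fit the log2 fold changes of Nid1 and Lamc1 changed sign, to −0.050 and −0.029, and that of Lamc1 ran from −0.033 (without WT library 1) to 0.11 (without WT library 2) when 1 library was left out; none of these passed the test in either fit. At an adjusted p of 0.01, 721 genes (4.86% of those tested), 8 matrix genes and 0 assembly genes were called by edgeR. The assembly list held 6 genes at an unadjusted p under 0.05 in that test and 4 calls by DESeq2 at 0.05. The proteoglycan count was 3 with no filter on low counts, 3 by DESeq2, 2 among protein-coding genes alone and 2 after removal of a trend with GC and length, while limma on log2 FPKM with a pseudocount of 1 or 0.1 called 2 assembly genes. Same-numbered libraries correlated in their deviations from the group mean at 0.174, −0.032 and −0.203, and differently numbered ones at −0.221 to 0.285. With 3 libraries per group this cannot settle whether the numbers pair them. With the replicate number as a block 1599 genes, 11 matrix genes, 2 assembly genes, 1 proteoglycan and 9 other glycoproteins were called. Scaling by library totals or size factors moved the median log2 fold change by 0.019 and 0.001 and left 13 matrix genes called. Col6a4 had at most 6 counts in a KO library, so its fold change carries a large counting error. The causes were not tested.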

Other observations

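Besides the matrix glycoproteins described above, 4 further genes of that list were called, named here after their values were seen. Netrin 4 (Ntn4), which binds laminin in basement membranes, rose, at 5.43, 5.49 and 6.26 CPM in KO libraries 1 to 3, against 2.24, 3.03 and 2.70 CPM in WT libraries 1 to 3 (log2 fold change 1.10, edgeR adjusted p = 0.00825). Netrin 1 (Ntn1), an axon guidance protein of the same family, fell, at 18.3, 14.4 and 20.9 CPM in KO libraries 1 to 3, against 26.3, 31.3 and 31.1 CPM in WT libraries 1 to 3 (log2 fold change −0.73, adjusted p = 0.0169). Tenascin-X (Tnxb), which associates with collagen fibrils, rose (68.4 ± 7.12 CPM in KO and 47.1 ± 6.19 CPM in WT, SD, n = 3 each; log2 fold change 0.54, adjusted p = 0.0231). Fibulin 1 (Fbln1), which binds fibronectin, fell (56.4 ± 1.71 CPM in KO and 80.8 ± 10.3 CPM in WT; log2 fold change −0.52, adjusted p = 0.0167).

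The authors' deposited table gives an adjusted p under 0.05 for 11 of the 13 matrix genes called here and the same direction for all 13. For Col6a4 the authors' deposited table gives 0.0833. It also gives an adjusted p under 0.05 for Col4a2 (log2 fold change 0.37, 0.0454) and Col5a3 (0.53, 0.0242), which did not pass here. The authors' log2 fold changes can differ in size from those of edgeR, as for Col6a3 (−1.06 against −1.37) and Col6a4 (−0.60 against −1.88). Sizes are therefore not compared between the 2 sources.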
